A study of Mus musculus with 116 samples.

Results

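The 10 genes described here were chosen by name as genes of the lysosome and of the lamellar body, a lysosome-related organelle: Ctsb, Ctsd, Ctsl, Ctsz, Lamp1, Lamp2, Psap, Grn, Cd63 and Npc2. They are 10 of the 40202 gene symbols counted in each of 116 RNA sequencing libraries from 2 mouse cell lines, and all 10 had counts in every group of libraries. C10 is labelled an alveolar type II epithelial line and SVEC an endothelial line; neither was treated. All libraries were made by nanoSPLITS, in which the lysate of very few cells is split in a nanodroplet so that RNA and protein can be measured from the same cells; the RNA side is described here. One set of C10 libraries varied the input (1 cell, n = 8; 3 cells, n = 6; 10 cells, n = 6) and is called the input series. A separate set of single cells had 48 libraries from each line. No gene was targeted and no control sample exists, and the labels name no culture, so the cells of a line share a source that is not specified further.

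Lysosomes are acidic compartments in which the cell breaks down proteins, lipids and sugars. Soluble hydrolases such as the cathepsins reach them from the Golgi by mannose 6-phosphate sorting, heavily glycosylated membrane proteins line them, and a proton pump, the V-ATPase, keeps them acidic. Alveolar type II cells carry lamellar bodies, which hold lysosomal enzymes and LAMP proteins and store the surfactant that the cell secretes. Many lysosomal genes are known targets of TFEB and its relatives, which bind E-box motifs with the core CACGTG.

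Median counts over genes were 10157062.5 in the 1-cell libraries, 11042629 in the 3-cell and 11425140 in the 10-cell libraries, 1801477 in the C10 single cells and 434945 in the SVEC single cells. In the C10 single-cell group 2 libraries did not reach 1000 counts and were not used, leaving 46. Of the libraries used, 7 stood apart by more than 20% mitochondrial counts or fewer than 10000 counts. Replicate 1 of the 1-cell group was the most extreme in mitochondrial share, with 430798 counts, 538 genes with a count, 64.6% of its counts on mitochondrial genes and 95.1% of its reads not aligned. The others with a high mitochondrial share were 1-cell replicate 14 (25.6%), C10 single-cell replicate 24 (30.9%) and SVEC replicates 24 (27.5%) and 48 (22.4%), and those with few counts were SVEC replicates 9 (5122) and 20 (6591). The labelled cell types were at most partly visible in the RNA. Of 12 alveolar type II markers, 7 were at 0 in all C10 single cells and in all SVEC cells (Sftpa1, Sftpb, Sftpc, Sftpd, Slc34a2, Nkx2-1 and Cebpa). Etv5 alone had a count in at least 50% of C10 single cells, and no marker did in SVEC. In the input series Lamp3 and Etv5 did so with 1 cell, Abca3 also with 3, and Lpcat1 also with 10. The summed medians there were 1.25, 11.7 and 14.7 CPM. In the 3-cell libraries only Sftpa1, Sftpc, Slc34a2 and Cebpa were at 0. Of 14 endothelial markers, 6 were at 0 in every SVEC cell, and none had a count in at least 50% of SVEC libraries. Plvap alone did so in C10 single cells, which were deeper, and 5 or 6 did in each group of the input series. The summed level of the 14 had a median of 3.55 CPM (counts scaled to a library total of 1000000) in SVEC (range 0 to 138 CPM). In C10 single cells the median was 2.18 CPM (range 0 to 48.3 CPM). Macrophage and leukocyte markers, which would accompany cells rich in lysosomes, summed to a median of 0.399 CPM in C10 single cells (range 0 to 137). In SVEC the median was 0 (range 0 to 349), and 6 and 8 of 14 markers were at 0. Ptprc, Csf1r and Tyrobp were among those at 0 in the single cells of both lines. In the C10 input series the summed median was 0.776 CPM with 1 cell, 33.9 with 3 and 71.1 with 10 (range 7.82 to 121). Cd68, Lyz2, Fcgr1, Mrc1 and Cd14 each had a count in at least 50% of the 10-cell libraries. Of 8 epithelial markers, Krt8 and Cldn4 were at 0 in all C10 single cells and Cdh1 alone had a count in at least 50% of them. The summed level had a median of 0.739 CPM (range 0 to 239) in C10 and of 0 in SVEC (range 0 to 13.4). In the input series the markers with a count in at least 50% of libraries were Cdh1 and Krt8 with 1 cell. They were Cdh1 alone with 3 cells, and Epcam, Cdh1 and Krt19 with 10. The summed medians there were 0.973, 1.78 and 12.2 CPM, with highest values of 427, 15.0 and 83.4 CPM. The summed level of 10 fibroblast and mesenchymal markers was high in the single cells of both lines. Its median was 6154 CPM in C10 (range 3146 to 15821) and 3518 CPM in SVEC (range 481 to 12352). Col1a1, Col3a1, Dcn, Vim and Acta2 had a count in at least 50% of libraries of each line. Thy1 and Lum were at 0 in both. The share of each gene in the sum was not looked at. The part of these differences between the lines in the results below was not tested.

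The 10 genes together took a median of 0.968% of all counts in C10 single cells (range 0.59 to 1.61%, n = 46) and 1.18% in SVEC cells (range 0.425 to 2.11%, n = 48). Per kilobase of exon, Cd63 was highest in both lines, with a mean of 1086 CPM per kb for C10 and 1177 for SVEC, and Psap was lowest, with 9.83 and 9.12. Cd63 encodes a tetraspanin of lysosomal and endosomal membranes, and Psap the precursor of the saposins, which help hydrolases reach sphingolipids. In C10 the order between them was Ctsl (357 CPM per kb), Ctsd (322), Lamp1 (200), Ctsz (176), Ctsb (151), Npc2 (101), Grn (98.5) and Lamp2 (55.9). In SVEC it was Ctsb (369), Ctsl (314), Ctsz (207), Grn (174), Ctsd (131), Npc2 (123), Lamp2 (91.7) and Lamp1 (84.7). Of the 9 pairs of neighbours in each order, the gap was larger than the larger SD of the pair for 2 in C10 (Cd63 over Ctsl, Lamp2 over Psap) and for 1 in SVEC (Cd63 over Ctsb). The other neighbours lay within the spread between cells, which is not the error of a mean, so their order is not taken as settled. Genes further apart in the order were not compared in this way. These lengths join all annotated exons of a gene. With the longest protein-coding transcript in their place Cd63 and Psap kept the first and last place, while Lamp2, whose joined exons span 9552 bases against 3604 in that transcript, came to 148 CPM per kb in C10 and 243 in SVEC.

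**Figure D1:**
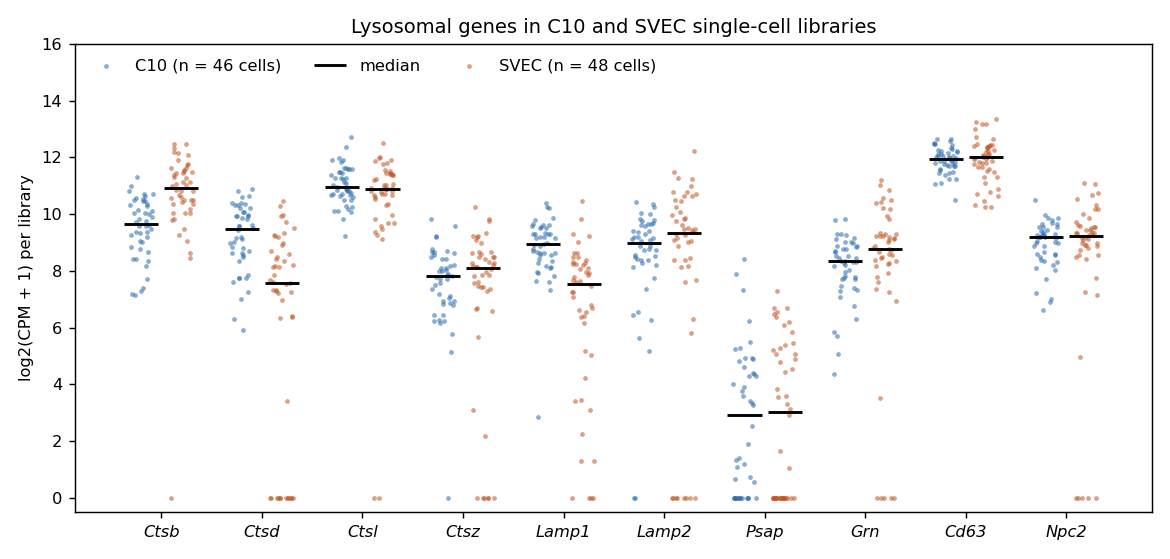
Level of each of the 10 genes, as log2(CPM + 1), in every single-cell library of C10 (blue, n = 46) and SVEC (orange, n = 48); black bars are medians and points at 0 are libraries with no count. Ctsd and Lamp1 sit higher in C10 and Ctsb higher in SVEC, with overlapping ranges, while Cd63 is high and Psap low in both lines.

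The first comparison set C10 single cells against SVEC single cells, 2 lines of different origin. Cathepsin D and Lamp1 RNA were higher in C10 and cathepsin B RNA was higher in SVEC, each by more than 2-fold in mean CPM, and the other 7 genes lay within 2-fold. Across the 9303 genes detected in 25% or more of either line's libraries, 19.6% were more than 2-fold higher in C10 and 18.6% more than 2-fold higher in SVEC, 38.2% in all. The 3 of 10 is near that background. The median log2 ratio (C10 over SVEC) of the 10 genes was -0.18 against 0.02 for all genes. Cells whose culture is not named are not replicates, so each line counts as 1 sample, no test was made, and the SDs below describe cells. Line and any batch that goes with it cannot be told apart, since the labels name no batch, and the lines also differed in depth. SVEC replicates 24 and 48 had no count of Ctsd, Lamp1 or Lamp2. Without the libraries that stood apart (45 C10 and 44 SVEC left) the same 3 genes were past 2-fold, at log2 ratios of 1.23 for Ctsd, 1.33 for Lamp1 and -1.40 for Ctsb.

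Ctsd encodes cathepsin D, the main aspartic protease of lysosomes. Its level ranged from 59.8 to 1904 CPM with a median of 712 in C10, and from 0 to 1412 CPM with a median of 190 in SVEC. Every C10 library had a count and 12 of 48 SVEC libraries had none, and 42 of 46 C10 libraries were above the SVEC median. Mean levels were 756 ± 483 CPM (SD, n = 46) in C10 and 307 ± 342 CPM (SD, n = 48) in SVEC, 2.46-fold higher in C10. The SVEC libraries without Ctsd were shallower, at a median of 183412 counts against 517517 in those with it, and 8 of the 12 had at least 100000 counts. With every library drawn down to 100000 counts, 34 of 42 SVEC libraries (81.0%, exact 95% interval 65.9 to 91.4%) and 45 of 45 C10 libraries (92.1 to 100%) still had a Ctsd count. Over the summed reads, Ctsd took 0.0857% of C10 counts (exact binomial 95% interval 0.0851 to 0.0863%) and 0.0342% of SVEC counts (0.0335 to 0.0349%). These intervals cover counting error only, since reads without molecular identifiers are not separate molecules.

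Lamp1 encodes one of the 2 most abundant glycoproteins of the lysosomal membrane. It ranged from 6.16 to 1344 CPM with a median of 487 in C10, and from 0 to 1396 CPM with a median of 186 in SVEC. It was the one gene of the 10 whose middle 50% of cells did not overlap between the lines, from 331 to 703 CPM in C10 and from 34.3 to 302 CPM in SVEC. Among the 9303 genes 4.94% were apart in this way, 4.4% with C10 higher and 0.548% with SVEC higher. The mean was 536 ± 286 CPM (SD, n = 46) in C10 and 227 ± 258 CPM (SD, n = 48) in SVEC, 2.36-fold higher in C10. Of all 2208 pairs of a C10 and an SVEC library, the C10 library was higher in 83.8% for Lamp1 and in 79.2% for Ctsd.

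Ctsb encodes cathepsin B, a cysteine protease of lysosomes. It ranged from 141 to 2559 CPM with a median of 809 in C10, and from 0 to 5746 CPM with a median of 1945 in SVEC. The highest SVEC cells had more than any C10 cell, and 42 of 48 SVEC libraries were above the C10 median. Means were 913 ± 558 CPM (SD, n = 46) and 2231 ± 1407 CPM (SD, n = 48), 2.44-fold higher in SVEC (log2 ratio -1.29). The call beyond 2-fold rested on scaling by library totals. It was -0.86 with TMM factors and -0.67 with the size factors of DESeq2, which moved the median log2 ratio of all genes from 0.02 to 0.36 and 0.55. The same scalings changed the share of all genes past 2-fold that were higher in C10 from 51.4% to 69.5% and 77.2%. Ctsd (1.68 and 1.79) and Lamp1 (1.77 and 1.88) stayed past 2-fold under both. Ctsb shares 774 annotated bases with Fdft1, and how reads there were assigned is not given in the sources used here. C10 replicates 1 to 10 were low in Ctsb, at a log2(CPM + 1) of 7.15 to 9.27. The later C10 replicates had 8.15 to 11.3. The ratio between the lines without replicates 1 to 10 was not taken.

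Ratios between genes of 1 library do not depend on its scaling. The pairs below were chosen after their values were seen. Of the reads on Ctsb and Ctsd, the median share on Ctsb was 56.8% in C10 single cells (n = 46) and 89.2% in SVEC (n = 45 with at least 20 reads of the pair). All 45 SVEC libraries had more Ctsb than Ctsd reads, as did 28 of 46 C10 libraries. Of the reads on Lamp1 and Lamp2, the median share on Lamp1 was 49.4% in C10 (n = 45) and 17.2% in SVEC (n = 40), where 8 libraries had too few reads. The C10 pools of 10 cells, from the other set of libraries, gave a median of 61.6% (range 55.7 to 72.8%, n = 6) for the first pair and a mean of 54.2 ± 9.20% (SD, n = 6) for the second, against single-cell means of 53.0 ± 19.1% in C10 and 25.4 ± 26.2% in SVEC. The smaller C10 inputs did not all match these. In the 1-cell libraries of the input series the share on Lamp1 had a median of 30.3% (mean 33.3 ± 25.7%, n = 6 with enough reads), nearer to SVEC, with 1 of 6 above 50%, and in the 3-cell libraries a median of 47.5% (n = 6). The share on Ctsb of the first pair had medians of 56.3% (n = 7, range 0 to 82.4%) and 64.1% (n = 6) in these groups. For Ctsb against Ctsl, another cysteine cathepsin, the C10 sets differed from each other: the median share on Ctsb was 26.7% in C10 single cells, 45.2% in C10 pools of 10 cells and 47.3% in SVEC.

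**Figure D2:**
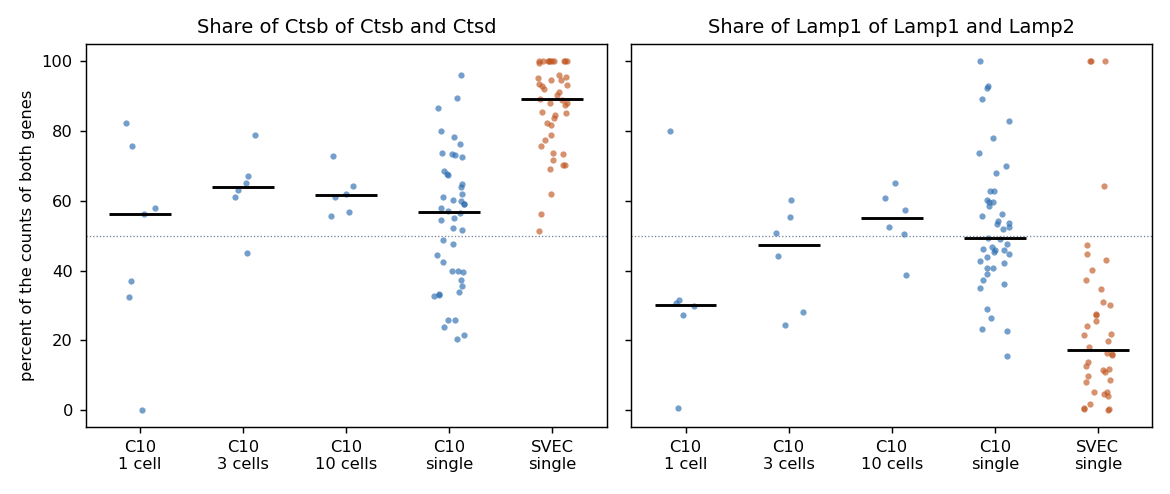
Share of Ctsb in the reads of Ctsb and Ctsd (left) and of Lamp1 in the reads of Lamp1 and Lamp2 (right), in percent, for each library with at least 20 reads of the pair; blue points are C10, orange points SVEC, black bars medians, and the dotted line is 50%. SVEC lies above the C10 groups on the left, at a median of 89.2%, and lowest on the right, at 17.2%, where the C10 1-cell libraries, at 30.3%, come nearest to it; single libraries overlap.

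The promoters of the 10 genes were looked up in RefSeq (GRCm38.p6), and those of Ctsd and Lamp1 are shown because these are the 2 genes past 2-fold higher in C10. Ctsl, which was within 2-fold between the lines, is shown beside them as the only other of the 9 genes with an entry that holds the E-box core. Ctsb has no entry. Each sequence is the 250 bases before the annotated start, read 5′ to 3′ on the gene's strand, and capitals mark CACGTG.
Ctsd, chr7:142387828-142388077, minus strand: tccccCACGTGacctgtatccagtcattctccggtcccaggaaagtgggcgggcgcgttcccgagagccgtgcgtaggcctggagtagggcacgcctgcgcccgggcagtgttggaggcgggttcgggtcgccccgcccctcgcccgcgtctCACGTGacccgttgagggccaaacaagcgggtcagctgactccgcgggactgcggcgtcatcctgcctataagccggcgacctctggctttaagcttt
Lamp1, chr8:13158911-13159160, plus strand: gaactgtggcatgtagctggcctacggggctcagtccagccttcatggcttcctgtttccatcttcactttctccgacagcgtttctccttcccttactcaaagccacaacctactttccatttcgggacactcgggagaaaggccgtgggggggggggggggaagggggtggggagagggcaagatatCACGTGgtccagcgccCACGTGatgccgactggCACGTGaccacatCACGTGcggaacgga
Ctsl, chr13:64370521-64370770, minus strand: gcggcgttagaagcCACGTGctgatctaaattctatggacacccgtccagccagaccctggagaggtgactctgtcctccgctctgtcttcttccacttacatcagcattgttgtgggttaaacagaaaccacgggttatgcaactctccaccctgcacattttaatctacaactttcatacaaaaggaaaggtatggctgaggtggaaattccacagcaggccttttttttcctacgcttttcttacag

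Lamp1 holds 4 copies of CACGTG, centred 58, 42, 25 and 12 bases before its start, Ctsd holds 2 and Ctsl 1. The Ctsl sequence ends in a run of t and c bases and then ag, as the end of an intron does. Whether this annotated start is the main one of Ctsl was not checked, so its copy may not lie in the main promoter. The motif reads the same on both strands. It was searched in the windows of 300 bases around all annotated starts, where 7.15% of 32851 promoters hold at least 1 copy, 0.594% at least 2 and 0.0244%, or 8 promoters, at least 4. Of the 10 genes, 9 have an entry, and Ctsz, Psap, Cd63, Grn, Npc2 and Lamp2 have no copy. The longer TCACGTGA, which contains the core, is in 0.974% of promoters and in Ctsd. Other motifs were searched on both strands. TCACGTG, which also contains the core, is in 3.77% of promoters, and in Ctsd and Lamp1. TGAGTCA is in 5.2%, and in Psap. CACATG is in 14.2%, and in Grn. GGGCGG is in 35.7%, and in 6 of the 9 genes, and TATAAA is in 13.6%, and in none of them. The promoters were looked at after the expression values were known, and a match describes letters in a window, not binding.

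**Figure D3:**
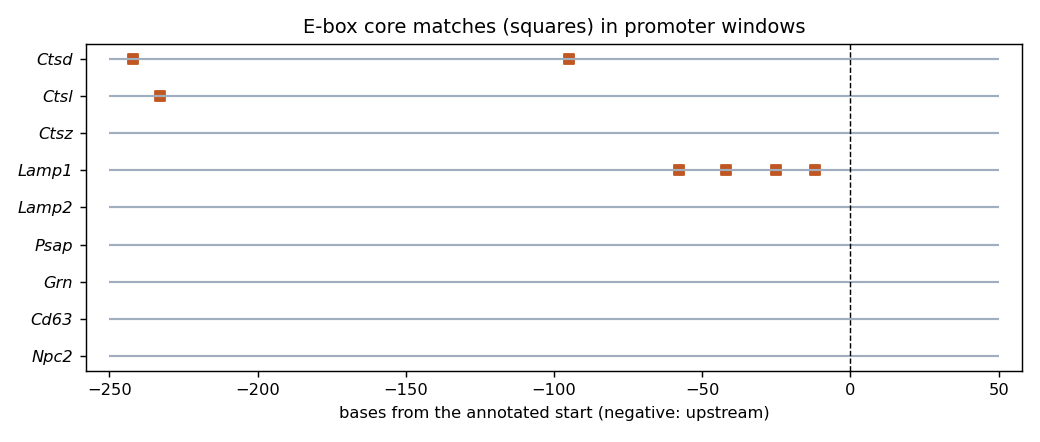
Positions of the E-box core (squares, centre of each match) in the promoter windows of the 9 genes with an entry, in bases from the annotated start (dashed line). Lamp1 has 4 matches within 58 bases of its start, Ctsd has 2, Ctsl has 1 far upstream, and the other 6 genes have none.

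The other 7 genes differed by less than 2-fold in mean CPM. Lamp2, the second major membrane glycoprotein, ranged from 0 to 1379 CPM (median 500) in C10 and from 0 to 4755 CPM (median 650) in SVEC, 1.64-fold higher in SVEC in the mean. Grn, which encodes the precursor of the granulins, ranged from 19.7 to 897 CPM (median 321) in C10 and from 0 to 2383 CPM (median 438) in SVEC, 1.76-fold higher in SVEC. For both genes the middle 50% of cells of the 2 lines overlapped. Cathepsin L RNA had a mean of 2318 ± 1167 CPM (SD, n = 46) in C10 and 2040 ± 1169 CPM (SD, n = 48) in SVEC, and Cd63 3999 ± 1171 and 4335 ± 2248 CPM. Both differences are smaller than the spread between cells, and Cd63, at a log2 ratio of -0.12, came to 0.29 with TMM factors and 0.40 with size factors. Ctsz, another cysteine cathepsin, had means of 253 and 299 CPM, and Npc2, a carrier of cholesterol inside lysosomes, 550 and 669 CPM. Their log2 ratios of -0.24 and -0.28 also changed sign with TMM factors, to 0.14 and 0.22. Psap was found in few reads of either line, and its ratio had no stable direction (0.11 by mean CPM, -0.34 over summed counts). It had a count in 32 of 46 C10 and 27 of 48 SVEC libraries, with medians of 6.77 and 7.14 CPM and highest values of 342 and 156 CPM.

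The rest of the lysosomal machinery was read from 8 lists of genes, whose counts stand beside 19.6% of all genes more than 2-fold higher in C10 and 18.6% in SVEC. Soluble lysosomal proteins split both ways: of 36 measured out of 48, 5 were more than 2-fold higher in C10 and 6 in SVEC, with a median log2 ratio of -0.03. The examples were Naglu, which degrades heparan sulfate, with 18.4 ± 29.1 CPM (SD, n = 46) in C10 against 2.22 ± 8.19 CPM (SD, n = 48) in SVEC, and Gm2a, the activator of GM2 ganglioside breakdown, at 53.7 and 19.1 CPM. In the other direction Asah1, acid ceramidase, had 197 CPM in C10 and 522 CPM in SVEC. Of 14 measured membrane proteins out of 20, 4 were higher in C10 and 1 in SVEC (median 0.33), which is within a few genes of that background. They included Scarb2, the receptor that carries glucocerebrosidase to lysosomes, at 76.8 and 36.0 CPM, and Tmem106b, a lysosomal membrane protein, at 135 and 65.4 CPM.

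V-ATPase subunits showed 2 of 16 higher in C10 and none higher in SVEC (median 0.18), both below the shares over all genes. Atp6v0a2 had 49.3 and 15.1 CPM, and Atp6v0d1 119 and 54.7 CPM, in C10 and SVEC. Among 21 genes that sort proteins to lysosomes, 1 was higher in C10 and 3 in SVEC (median -0.20). The C10 gene was Gnptab, which makes the mannose 6-phosphate tag, at 52.3 ± 85.4 CPM against 19.5 ± 85.4 CPM. Among 14 regulators and nutrient sensors, 1 was higher in C10 and 2 in SVEC (median -0.18). Tfeb itself had a count in 15 of 46 C10 and 1 of 48 SVEC libraries, at mean levels of 14.4 ± 36.2 and 10.4 ± 71.8 CPM, and was named after its values were seen. The C10 libraries were deeper, and detection of Tfeb at equal depth was not looked at. No gene was past 2-fold in the lists of 3 measured inhibitors of cathepsins out of 7 (median -0.17), in which cystatin B (Cstb) had 2158 and 1569 CPM, and of 5 measured genes out of 19 for the lamellar body and surfactant (median 0.51). In that last list 8 genes had no count in the single cells of either line, among them all 4 surfactant proteins. Lamp3, the LAMP of lamellar bodies, had a count in 10 of 46 C10 and 7 of 48 SVEC libraries. Its means were 0.107 and 0.238 CPM. Of 8 tetraspanins beside Cd63, Tspan4 was higher in C10 (142 and 65.7 CPM) and Cd9 higher in SVEC (371 and 820 CPM), with a list median of -0.36.

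**Figure D4:**
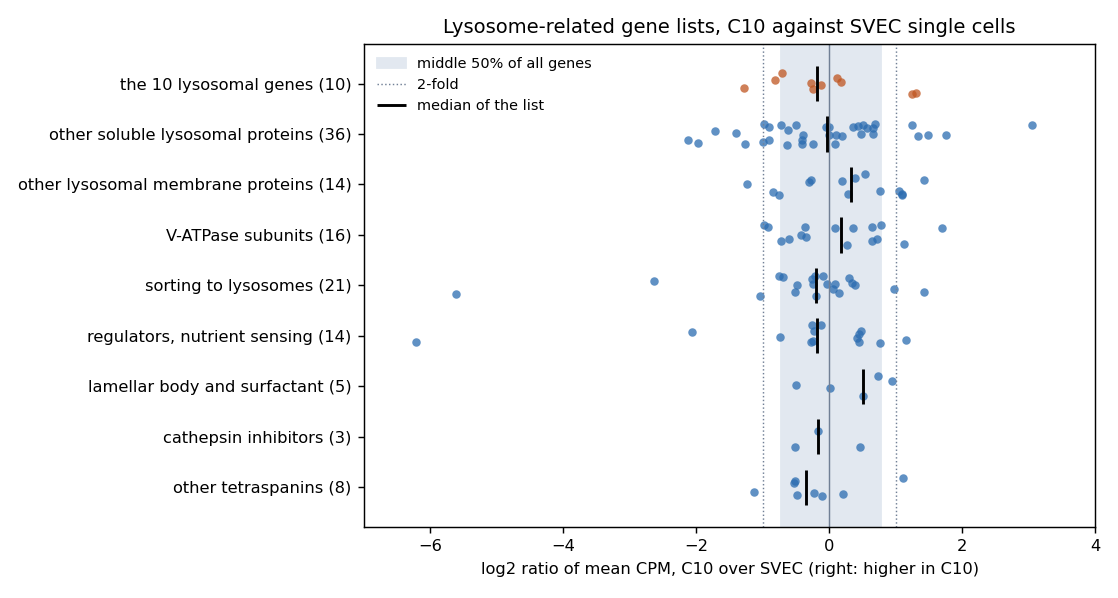
Log2 ratio of mean CPM, C10 over SVEC single cells, for each measured gene of the 10 lysosomal genes (orange) and of 8 lists of related genes (blue), with list medians (black bars), the middle 50% of all genes (grey band) and 2-fold lines (dotted). List medians lie between -0.36 and 0.51; the lowest points, Rragd at -6.22 and Ap1g1 at -5.62, have counts in 12 and 10 of 48 SVEC libraries and were singled out after their values were seen.

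In a pool, fewer cells with a transcript and less of it per cell cannot be told apart. The 10 genes took a median of 0.78% of counts in 1-cell libraries (n = 8), 1.22% in 3-cell libraries (n = 6) and 1.02% in 10-cell libraries (n = 6). All 10 were present in every library of 3 and 10 cells. In 1-cell libraries each gene other than Psap was at 0 in 1 or 2 of 8, and replicate 1 had counts of Psap alone among the 10.

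Lamp1 had the highest ratio of 10-cell to 1-cell mean level among the 10 genes. It ranged from 0 to 435 CPM (median 95.2) in 1-cell libraries, from 96.4 to 484 CPM (median 360) in 3-cell libraries and from 281 to 656 CPM (median 500) in 10-cell libraries. These groups overlapped: 1-cell replicates 9 and 2, at 435 and 294 CPM, lay above the lowest 10-cell library. Psap went the other way, from 1.18 to 1996 CPM (median 141), from 24.5 to 227 CPM (median 67.7) and from 33.2 to 109 CPM (median 65.2). In mean CPM, 10-cell over 1-cell, Lamp1 was 3.51-fold higher and Psap 5.44-fold lower, and the other 8 genes were within 2-fold. Of 15339 genes in this comparison, 43.5% were more than 2-fold higher in 10 cells and 13.9% lower, and the median log2 ratio was 0.25 for the 10 genes and 0.69 for all genes. Without 1-cell replicate 1 the log2 ratio of Psap went from -2.44 to -1.08, over summed counts it was -0.98, and without both 1-cell libraries with a high mitochondrial share it was -0.57, the latter values being within 2-fold. Lamp1 was at 1.40 without both. Lamp2, at 0.81, came to 1.26 without 1-cell replicate 2, past 2-fold. Lamp1 went from 1.81 to 0.52 with the size factors of DESeq2, under which 7 of the 10 genes were lower past 2-fold and the share of all calls that were higher fell from 75.8% to 43.0%. The 1-cell libraries are single cells of an unnamed culture, so these are ratios with no test.

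**Figure D5:**
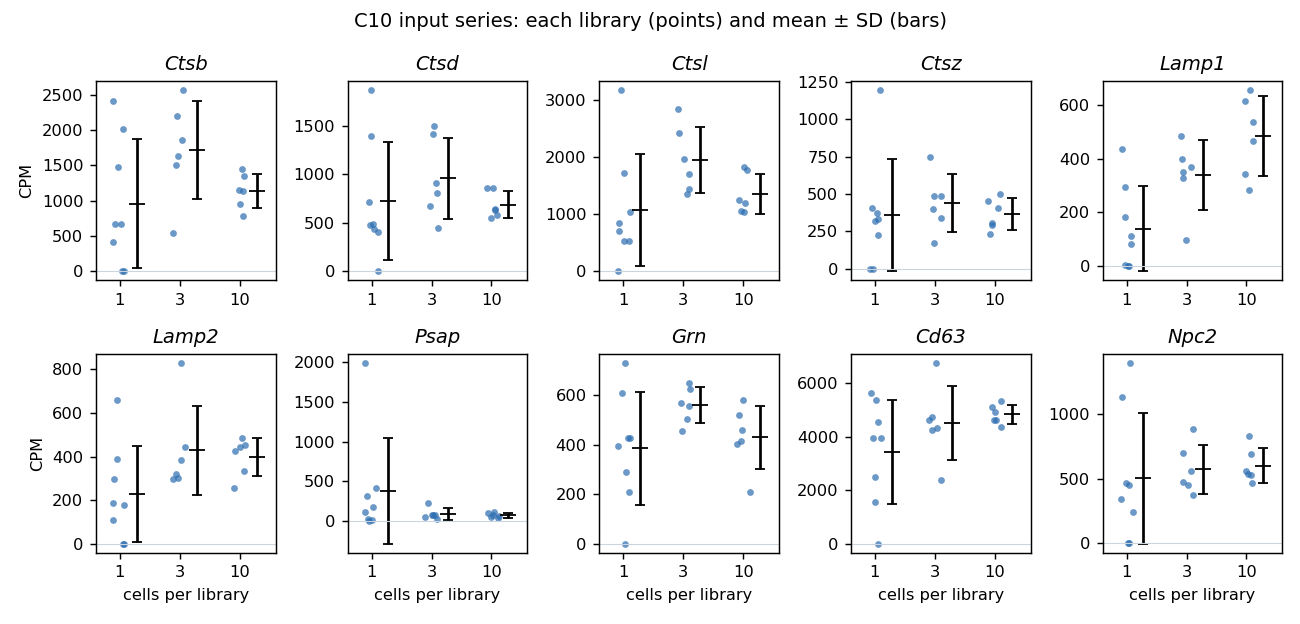
CPM of each of the 10 genes in every C10 library of 1, 3 or 10 cells (points; n = 8, 6 and 6), with mean ± SD beside them; each panel has its own linear axis. Cd63 has a coefficient of variation of 56.8% with 1 cell (37.7% without replicate 1) and 7.25% with 10, while that of Grn is 12.9% with 3 cells and 29.8% with 10; the Psap value of 1996 CPM is 1-cell replicate 1.

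C10 single cells of the larger set were then set beside the 1-cell libraries of the input series, the same line and input in 2 sets of libraries. Mean CPM was 3.90-fold higher for Lamp1, 2.35-fold higher for Lamp2 and 2.17-fold higher for Ctsl in the larger set, and 14.0-fold lower for Psap. That made 3 of 10 higher and 1 lower, against 32.0% and 24.0% of 12303 genes, or 56.0% in either direction. The median log2 ratio was 0.10 for the 10 genes and 0.21 for all. Psap had no count in 14 of 46 libraries of the larger set and in none of 8 in the input series, whose libraries were deeper. Drawn down to 100000 counts, 22 of 45 and 6 of 8 libraries had Psap. Without 1-cell replicate 1 the log2 ratio of Psap was -2.45 in place of -3.81, and that of Ctsl was 0.93, within 2-fold. Without all libraries that stood apart, Lamp1 (1.58) and Psap (-1.90) alone were past 2-fold. Scaling decided most of these calls. Lamp1 and Psap alone stayed past 2-fold over summed counts (1.69 and -2.59), Lamp2 and Ctsl fell to 0.70 and 0.50 with TMM factors, and with the size factors of DESeq2 no gene was higher and 7 were lower. The share of all calls that were higher was 57.2% as scaled by totals, 40.6% with TMM and 28.4% with size factors. This comparison shares the 1-cell libraries with the one above.

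Pools of 10 and of 3 cells are numbered libraries and were compared with a test, edgeR's quasi-likelihood test. No gene of the 10 passed, and the fitted ratios farthest from 0 were those of 3 cathepsins and Grn. Ctsb ranged from 546 to 2569 CPM (median 1749) in 3-cell libraries and from 788 to 1455 CPM (median 1142) in 10-cell libraries. Of the 6 libraries of 3 cells, 5 were above the highest 10-cell library. The fitted log2 ratio, 10 cells over 3 cells, was -0.76 ± 0.28 (SE; edgeR adjusted p = 0.239). For Ctsl the 3-cell libraries ranged from 1361 to 2842 CPM and the 10-cell libraries from 1041 to 1828 CPM, with overlap, a log2 ratio of -0.68 ± 0.21 and an edgeR adjusted p of 0.210. Ctsd (-0.63, edgeR adjusted p = 0.393) and Grn (-0.53, edgeR adjusted p = 0.324) were the other genes with an unadjusted p under 0.05. The remaining 6 genes had log2 ratios from -0.47 for Psap to 0.37 for Lamp1 and edgeR adjusted p-values of at least 0.878.

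Over all 13602 genes edgeR called 0% at an adjusted p under 0.05. At an unadjusted p under 0.05 it had 1592 genes, 11.7%, of which 264, or 1.94% of all genes, were lower in 10 cells, the direction of the 4 genes above. The limma test called 0 genes and the DESeq2 Wald test 545, among them Grn at a DESeq2 adjusted p of 0.0398 and a log2 ratio of -0.83. In simulated counts of the same design, edgeR found 6% of 200 altered genes among 11772 at a log2 change of 2. At a change of 4 it found 30.2% of 199 among 11752. Of the calls of DESeq2, 93 of 127 and 128 of 260 were unchanged genes. The altered genes were drawn from all genes detected in these pools, not from genes as widely detected as the 10. Recovery and false calls for genes like the 10 were therefore not measured. Nothing in the labels ties these libraries to separate cultures, so the p-values measure the spread between libraries, which may be technical.

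The median coefficient of variation (CV) of the 10 genes was 95.8% with 1 cell, 39.5% with 3 and 24.3% with 10. Single genes did not all follow this order: Grn had 59.0%, 12.9% and 29.8%. All genes with a count in at least 25% of libraries had medians of 174%, 116% and 92%. The 10 genes had a count in every 3-cell and 10-cell library. Genes with a count in at least 90% of those libraries are nearer to them in detection and had medians of 65.2% and 59.9%. Without 1-cell replicate 1 the median CV of the 10 genes with 1 cell was 82.0%. In single cells of the larger set the median CV was 60.4% in C10 and 88.8% in SVEC, and 60.7% and 82.9% when libraries were drawn down to 100000 counts. At the 90% filter C10 single cells had a median of 59.6% for the 9 of the 10 genes that passed and 65.5% for all genes. In SVEC these were 60.2% for the 4 that passed and 72.9%. Cd63 was the steadiest of the 10 in every group except the 3-cell libraries, where Grn was. The CV of Cd63 was 56.8% in 1-cell libraries and 37.7% without replicate 1, in which it was at 0. It was 7.25% in 10-cell libraries, lower than in all but 0.122% of the 8180 genes with a count in at least 90% of these libraries, and 29.3% in C10 single cells, lower than in all but 0.769% of 1821 genes. In SVEC cells it was 51.9%, above that of 6.7% of 448 genes.

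Rank correlations between the 10 genes within a line were mostly weak, and more often above 0 in C10 than in SVEC. Over the 45 pairs of genes, Spearman's rho of CPM had a median of 0.22 in C10 single cells (n = 46, from -0.19 for Ctsd and Cd63 to 0.50 for Ctsb and Grn). In SVEC, whose libraries were shallower, the median was 0.04 (n = 48, from -0.25 for Ctsb and Psap to 0.45 for Ctsb and Grn). Of the 45 pairs, 3 were below 0 in C10 and 20 in SVEC. In C10, low values of Ctsb and Grn sat together in replicates 1 to 10. Grn had a log2(CPM + 1) of 4.37 to 8.87 there and of 5.86 to 9.81 in the later replicates. Ctsb had 7.15 to 9.27 and 8.15 to 11.3. The part of this block in the C10 correlations was not tested. Pairs of genes outside the 10 were not examined. Cells share the library total as a divisor, and rho with that total ranged from -0.27 for Cd63 to 0.43 for Ctsd in C10, and from -0.32 for Lamp1 to 0.36 for Lamp2 in SVEC. The genes most like the summed level of the 10 in C10 cells were Stt3a (rho 0.61), Sat1 (0.59) and Ctsa (0.59), the last encoding cathepsin A. Over 1812 genes rho had a median of -0.03 and a 95th percentile of 0.35. In SVEC cells they were Vps29 (0.51), Rpl19 (0.50) and Aldoa (0.46), of 444 genes with a median of 0.12 and a 95th percentile of 0.38. These values are descriptions over cells whose cultures are not named.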

How the data were processed

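Per the labels, full-length cDNA was made with SMART-Seq v4 Plus and sequenced as single reads of 150 bases. The deposited files hold whole-number read counts per gene symbol, 1 file per library, with 5 closing counters for unassigned reads (a median of 29.7 to 44.0% of reads by group), which were kept out of totals. The submitters' processing notes name FastQC, STAR and HTSeq, without versions. Build, annotation and strand setting are not given in the sources used here, so no coordinates were taken from the deposited files; exon lengths, gene overlaps and promoter positions come from the references named below and may differ from the authors' annotation. The counter for reads with several alignments is 0 in every library.

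Counts were scaled to CPM by the library total. For folds, mean CPM over libraries was compared among genes with a count in 25% of libraries of a group, and 2-fold was the limit. Single cells were not tested, because no culture is named. Pools of 10 and 3 cells were tested with edgeR 4.0.16 (TMM, a count in 50% of libraries of a group, Benjamini-Hochberg, 0.05), with limma 3.58.1 and DESeq2 1.42.0 beside it. These fits were tested on simulated data. Alternatives were other scalings, detection filters, summed or median levels, libraries drawn down to 100000 counts, a replicate block and leaving out each library of the input series in turn. The CV without 1-cell replicate 1, and the folds without libraries over 20% mitochondrial or under 10000 counts, were added after seeing the data. Replicate numbers of the pools were not used as pairs in the main fit. The closest pair of libraries in any group differed by a chi-square of at least 55.8 per degree of freedom. Exon lengths came from GENCODE, overlaps from RefSeq and promoters from RefSeq GRCm38.p6.

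The 10 genes, the 8 lists, the markers and the tests were chosen with earlier results of these data known. From each list up to 2 genes per direction are named, those with the largest ratio past 2-fold and a count in 50% of libraries of the higher line. A gene that this rule picks is not reported here. The 3 genes most like the summed level were taken among genes with a count in 90% of libraries. Scripts ran under Python 3.11.15 and R 4.3.3.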

Additional observations from a re-analysis of the deposited data

Results flagged for a closer look

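In 33 sets of values (a gene, or the share of counts on all 10 genes, in 1 group of the input series) the highest or lowest library was compared with the rest, and 4 sets had 1 library further from its nearest neighbour than Dixon's limit allows at 95%. If the sets were independent and normally distributed, about 1.65 such sets would be given by chance. They share the same libraries and hold values of 0, so 4 against 1.65 is not read as an excess. In the 1-cell libraries Ctsz was at 1197 CPM in replicate 2, while the others had 0 to 406 CPM. Psap was at 1996 CPM in 1-cell replicate 1, while the others had 1.18 to 415 CPM. This is the library with 64.6% mitochondrial counts and no count of the other 9 genes. In the 3-cell libraries Lamp2 was at 831 CPM in replicate 9, while the others had 297 to 443 CPM, and Psap was at 227 CPM in replicate 5, while the others had 24.5 to 70.4 CPM.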

How the results depend on the processing

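For C10 against SVEC single cells the log2 ratios of Ctsb, Ctsd, Ctsl, Lamp1, Lamp2 and Grn kept their sign in the alternatives run, while Ctsz, Cd63 and Npc2 changed sign with TMM and size factors, and Psap over summed counts and over median CPM. Ctsb was no longer past 2-fold with TMM or size factors. The count of all genes past 2-fold there was 3551, against 10786 with no filter on detection and 363 with a count in 90% of libraries. For C10 single cells against 1-cell libraries, 4 of the 10 genes were past 2-fold, 2 over summed counts, 2 without libraries over 20% mitochondrial or under 10000 counts (chosen after seeing the data) and 7 with the size factors of DESeq2, which also reversed Ctsl to -0.17. All genes went from 6892 to 12044 with no filter, 601 at 90% and 3837 drawn down to 100000 counts. For 10 cells against 1 cell, 2 of the 10 genes were past 2-fold, 1 over summed counts, 1 without those libraries and 7 with size factors, and all genes went from 8815 to 3520 at 90% and 5432 drawn down.

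For 10 against 3 cells, edgeR called 0 genes, 4 at a 90% filter, and DESeq2 545 (1 of the 10). With the replicate number as a block it called 0 genes (1284 at an unadjusted p under 0.05). Over all genes, the deviations of same-numbered libraries correlated at -0.0182 to 0.0533, and 2 of 6 correlated best with their own number. Replicate 1 had the lowest total and the highest mitochondrial share among both the 3-cell (16.7%) and the 10-cell libraries (17.8%). Whether libraries of the same number share a run or position was not tested. Small log2 ratios changed sign. Cd63 became 0.01 with the block, 0.10 with library totals, 0.16 with limma, 0.00 without 3-cell replicate 5, 0.10 without 3-cell replicate 9 and 0.01 without 10-cell replicate 6. Npc2 became 0.07 with library totals, 0.10 with limma and 0.09 without 3-cell replicate 10. Psap became 0.31 with the share of detected genes as a covariate and 0.18 without 3-cell replicate 5, and Lamp2 0.03 without 3-cell replicate 9. Leaving out 1 library at a time gave -0.17 to 0.10 for Cd63, -0.17 to 0.09 for Npc2, -0.67 to 0.18 for Psap and -0.34 to 0.03 for Lamp2. The causes were not tested. In the shallowest SVEC library without Psap, 3 counts correspond to 586 CPM, and over all 21 without it to a median of 11.1 CPM. Of these 21 libraries, 17 had at least 100000 counts. The part of depth in the zeros of SVEC cells was not tested.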
